A study of Mus musculus with 6 samples.

Results

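The Polycomb repressive complexes were followed in mouse chemically induced cardiovascular progenitor cells (ciCPCs) through 10 of their genes: Ezh1, Ezh2, Eed, Suz12 and Jarid2 of PRC2, and Bmi1, Ring1, Rnf2, Cbx2 and Cbx7 of PRC1. All 10 were found by symbol among the 53801 genes of the count files, and all 10 were among the 15143 genes that passed the low-count filter. ciCPCs are progenitors reprogrammed from fibroblasts with chemicals. Both groups were wild type of mixed C57BL/6 and 129J/SvE stock, were passaged after colonies had been picked, and grew with BMP4, Activin A, CHIR99021 (a glycogen synthase kinase inhibitor) and SU5402 (an FGF receptor inhibitor). The early group was collected at passage 3 and the late group at passage 20, with 3 RNA sequencing libraries each. The labels do not say that replicates were separate cultures or that both passages came from the same colonies, so the p-values reflect the spread among these libraries alone, and differences of culture or harvest cannot be told apart from passage.

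Polycomb proteins keep developmental genes silent. PRC2 methylates a lysine of histone H3 through its catalytic subunit, Ezh1 or Ezh2, which works only together with Eed and Suz12. PRC1 ubiquitylates histone H2A through Ring1 or Rnf2, paired with 1 of 6 PCGF proteins, of which Bmi1 is one. In canonical PRC1 a CBX protein such as Cbx2 or Cbx7 reads the methyl mark that PRC2 has laid. In heart development these complexes are known for restraining the genes of other lineages, and the best studied targets are the Hox clusters and the cell cycle inhibitor locus Cdkn2a.

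Libraries held 11387738 to 17721788 counts in genes, and levels are given as TMM-normalised CPM (counts scaled to a common library total), mean ± SD with n = 3 per passage unless each library is listed. Of 8 cardiac progenitor markers all 8 had counts, and their summed level was 763 to 786 CPM at passage 3 and 642 to 710 CPM at passage 20. One by one, 4 of these markers were higher and 4 lower at passage 20 by the test used below. Cardiomyocyte, endothelial and immune markers summed to at most 13.3 CPM in any library, with Myl2, Emcn and Ptprc at 0 counts. Smooth muscle markers summed to 785 to 848 CPM and neural markers to 97.8 to 117 CPM. Fibroblast markers summed to 13372 to 14093 CPM at passage 3 and to 27629 to 32912 CPM at passage 20, with 5 of 7 higher and 2 lower by the same test, and their part in the Polycomb values was not tested. In such bulk RNA, fewer cells of a type and less RNA per cell cannot be told apart. Passage 20 replicate 3 stood apart from its group: its counts differed from those of replicates 1 and 2 by a chi-square of 10.6 and 8.72 per gene, against 2.04 between replicates 1 and 2 and 1.75 to 2.63 at passage 3. Results that rest on it are therefore also given without it.

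Of the 10 Polycomb genes, 5 were higher at passage 20, 3 were lower and 2 did not pass at an adjusted p under 0.05. The test was the quasi-likelihood one of edgeR, with p-values adjusted over all genes by Benjamini-Hochberg (BH). The higher genes were Cbx7, Jarid2, Eed, Ezh1 and Suz12, the lower ones Cbx2, Bmi1 and Ring1, and the others Ezh2 and Rnf2. Across all genes 74.3% were called, 37.0% higher and 37.3% lower, so a share of 80.0% among these 10 genes lies near the background. Groups did not overlap in 9 of the 10 genes, beside 77.5% of all genes, and 4 of the 10 were called and changed at least 2-fold, beside 27.6%. The median log2 fold change of the 10 genes was 0.24, beside -0.01 over all genes. All 4 called PRC2 genes were higher, whereas of the 4 called PRC1 genes 1 was higher and 3 were lower. Without passage 20 replicate 3 the count was 7 higher and 3 lower, since Ezh2 and Rnf2 then passed. Scaling by library sizes only, without TMM factors, moved the median of all genes to -0.34, with 3528 higher and 8273 lower in place of 5604 and 5641, and gave 4 Polycomb genes higher and 5 lower, with Suz12 not passing. Ezh2 and Rnf2 then passed as lower, so the called PRC2 genes no longer all went the same way.

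**Figure D1:**
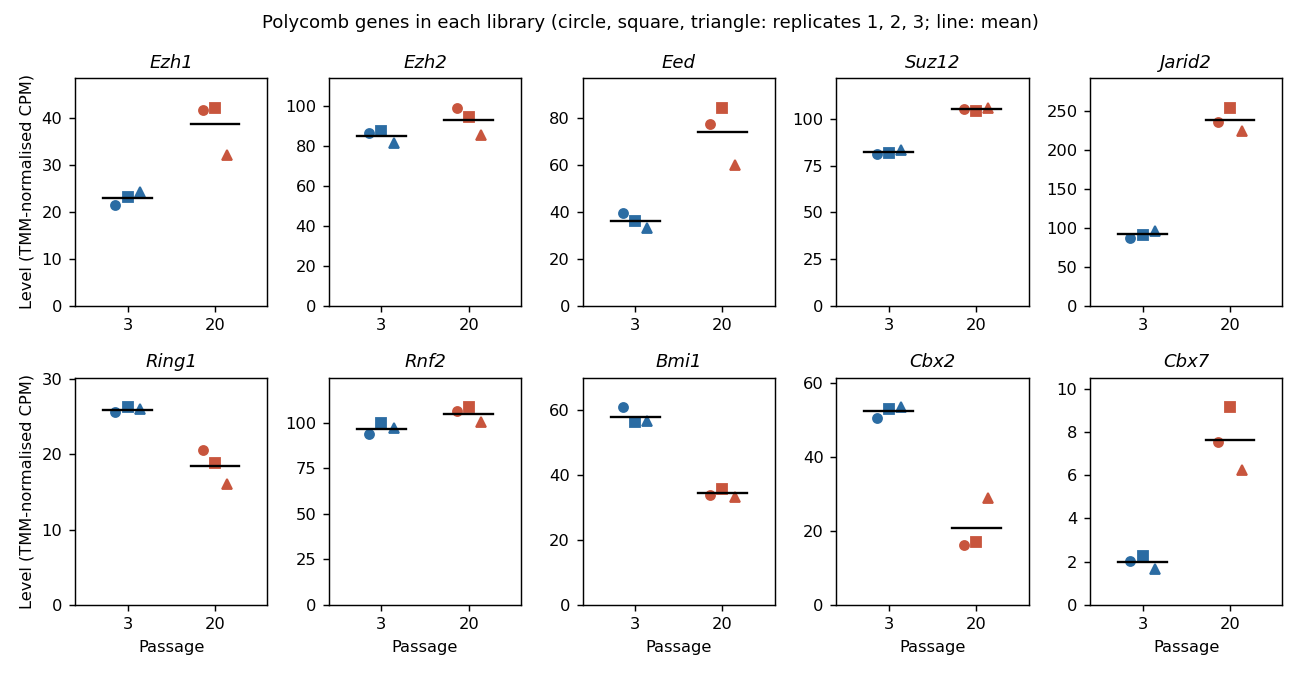
Level of each Polycomb gene in TMM-normalised CPM (vertical axes, each from 0) at passage 3 (blue) and passage 20 (red), 3 libraries each, with the group mean as a line. The groups are apart in every panel except Ezh2, and the passage 20 triangle (replicate 3) is the highest of its group for Cbx2 and Suz12 and the lowest for Ezh1, Ezh2, Eed, Jarid2, Ring1, Rnf2, Bmi1 and Cbx7.

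Within the core of PRC2 the changes differed in size. The 3 promoter stretches below belong to genes of that core with different changes (Ezh2 not passing, Suz12 raised slightly and Eed raised most), and show the 250 bases before the RefSeq start on GRCm38.p6, written 5′ to 3′ on the gene's strand. Capitals mark matches, on either strand, to CCAAT and to the E2F octamers TTTCCCGC, TTTCGCGC, TTTGCCGC and TTTGGCGC.
Ezh2 (chr6:47595031-47595280, minus strand): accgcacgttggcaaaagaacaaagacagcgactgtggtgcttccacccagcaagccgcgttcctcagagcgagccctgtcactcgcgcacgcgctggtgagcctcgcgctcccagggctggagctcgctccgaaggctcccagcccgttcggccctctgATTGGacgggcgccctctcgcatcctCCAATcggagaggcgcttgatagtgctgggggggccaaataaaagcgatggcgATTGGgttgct
Suz12 (chr11:79992856-79993105, plus strand): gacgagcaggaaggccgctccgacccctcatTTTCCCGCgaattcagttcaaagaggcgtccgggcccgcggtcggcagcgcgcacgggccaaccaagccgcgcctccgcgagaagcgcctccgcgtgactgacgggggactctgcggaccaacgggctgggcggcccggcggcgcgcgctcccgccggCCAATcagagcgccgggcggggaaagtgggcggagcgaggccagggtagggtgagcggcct
Eed (chr7:89980977-89981226, minus strand): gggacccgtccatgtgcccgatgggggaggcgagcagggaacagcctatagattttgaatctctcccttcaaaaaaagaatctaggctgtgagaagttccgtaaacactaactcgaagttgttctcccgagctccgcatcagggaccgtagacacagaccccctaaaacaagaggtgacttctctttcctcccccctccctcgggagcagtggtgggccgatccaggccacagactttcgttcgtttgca
The Ezh2 window held 3 CCAAT matches, the Suz12 window 1 CCAAT and 1 E2F match, which do not overlap, and the Eed window neither. Among all 32851 mouse windows of this length, 33.8% held CCAAT and 1.86% an E2F octamer. Promoter windows were found for 9 of the 10 genes, with 2 for Jarid2. Of these 10 windows 4 held CCAAT and 1 an E2F octamer. CCAAT was also in the window of Cbx7 and in 1 of those of Jarid2. The windows of Ezh1, Rnf2, Ring1 and Bmi1 held neither motif. Whether the matches bear on the changes was not tested. Their GC content was 54.4% to 73.6%, beside a median of 52.4% over all windows, and their CpG ratio (observed over expected) was 0.652 to 1.10, beside 0.373.

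Ezh2 (chromosome 6, 47530139 to 47595341), the main methyltransferase of dividing cells, stood at 86.4, 87.3 and 81.7 CPM at passage 3 and at 99.1, 94.4 and 85.3 CPM at passage 20. The groups overlapped through the third late library. The log2 difference was 0.13 with a 95% interval of -0.02 to 0.27 (adjusted p = 0.108, edgeR quasi-likelihood, BH-adjusted). Without passage 20 replicate 3 it was 0.17 and passed (adjusted p = 0.00448), and with library sizes only it was -0.21 and passed in the other direction (adjusted p = 0.00939). No direction is therefore given for Ezh2. Its paralog Ezh1 (chromosome 11, 101191115 to 101226463), known as the catalytic subunit of resting cells, went from 21.4, 23.0 and 24.1 CPM to 41.6, 42.1 and 32.1 CPM. Every late library was above every early one, and the rise was 1.68-fold (log2 0.75, SE 0.11, adjusted p = 7.64e-05, edgeR quasi-likelihood, BH-adjusted).

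Eed (chromosome 7, 89954654 to 89980983), the subunit that binds the methyl mark and stimulates the enzyme, rose 2.04-fold. Its libraries held 39.7, 36.1 and 32.96 CPM at passage 3 and 77.8, 84.4 and 60.2 CPM at passage 20. The third late library was the lowest of its group and still above all early ones (log2 1.03, SE 0.12, adjusted p = 5.12e-05, edgeR quasi-likelihood, BH-adjusted). Suz12 (chromosome 11, 79993106 to 80034123), the scaffold of PRC2, went from 81.4, 81.7 and 83.3 CPM to 105, 104 and 106 CPM. Its libraries were the most alike of the 10 genes at passage 20, with an SD of 0.890 CPM, and the rise was 1.28-fold (log2 0.36, SE 0.05, adjusted p = 7.83e-05, edgeR quasi-likelihood, BH-adjusted). With library sizes only the change of Suz12 was 0.03 and did not pass.

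Jarid2 (chromosome 13, 44729474 to 44921643), an accessory subunit that helps PRC2 bind chromatin, had the largest rise among the PRC2 genes. It went from 87.3, 91.0 and 95.6 CPM at passage 3 to 236, 254 and 224 CPM at passage 20, 2.60-fold higher (log2 1.38, SE 0.06, adjusted p = 7.16e-09, edgeR quasi-likelihood, BH-adjusted). The early and late libraries were far apart, and under every alternative of scaling, test, filter and left-out library that was run its log2 change stayed between 1.05 and 1.40.

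Both ubiquitin ligases of PRC1 were measured. Rnf2 (chromosome 1, 151458004 to 151500955), the major ligase, was at 93.6, 99.7 and 97.0 CPM at passage 3 and at 107, 108 and 100.3 CPM at passage 20. All late libraries were above the early ones by a small margin, and the log2 difference was 0.12 with a 95% interval of -0.01 to 0.24 (adjusted p = 0.0769, edgeR quasi-likelihood, BH-adjusted). It was 0.14 without passage 20 replicate 3 (adjusted p = 0.0147) and -0.21 with library sizes only (adjusted p = 0.00353), so no direction is given for Rnf2 either. Ring1 (chromosome 17, 34020792 to 34024680), its paralog, fell from 25.6, 26.2 and 26.0 CPM to 20.6, 18.9 and 16.0 CPM. The groups did not overlap, and Ring1 was 1.41-fold lower (log2 -0.49, SE 0.10, adjusted p = 0.000784, edgeR quasi-likelihood, BH-adjusted).

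Bmi1 (chromosome 2, 18677018 to 18686629), a PCGF subunit known for holding Cdkn2a silent in mouse fibroblasts and stem cells, fell 1.69-fold. It was at 60.8, 56.3 and 56.6 CPM at passage 3 and at 33.9, 35.7 and 33.3 CPM at passage 20. The libraries of each passage lay close together, and the log2 change was -0.76 (SE 0.07, adjusted p = 1.77e-06, edgeR quasi-likelihood, BH-adjusted).

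The CBX readers moved in opposite directions. Cbx2 (chromosome 11, 119022962 to 119031270), a reader that also compacts chromatin, fell from 50.6, 53.2 and 53.5 CPM to 16.2, 16.9 and 29.0 CPM. The third late library lay well above the other late ones and below all early ones, so the 2.50-fold fall (log2 -1.32, SE 0.19, adjusted p = 0.000411, edgeR quasi-likelihood, BH-adjusted) had one of the widest intervals, -1.77 to -0.87, and was -1.68 on the log2 scale without that library. Cbx7 (chromosome 15, 79915807 to 79971119), the main CBX reader of embryonic stem cells, rose 3.83-fold from a low level. Its raw counts were 32, 37 and 33 at passage 3 and 76, 92 and 76 at passage 20. As levels these were 2.03, 2.28 and 1.67 CPM and then 7.52, 9.15 and 6.25 CPM, without overlap (log2 1.94, SE 0.20, adjusted p = 4.93e-06, edgeR quasi-likelihood, BH-adjusted). On the authors' deposited log2 values the change of Cbx7 was 1.41.

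Some of these genes share sequence with neighbours. Cbx7 shares 100 exonic bases with Apobec3 on the opposite strand, which had 1270 counts in all beside 346 for Cbx7. Apobec3 moved the other way, from 17.7 ± 1.27 to 10.8 ± 2.74 CPM. Rnf2 shares 158 exonic bases with Trmt1l on the opposite strand, which was at 36.7 ± 2.33 and 34.0 ± 1.83 CPM. Whether reads were counted by strand is unknown here, so both genes are uncertain to that extent. Ezh2, Eed and Suz12 overlap noncoding genes with at most 2.22% of their counts.

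**Figure D2:**
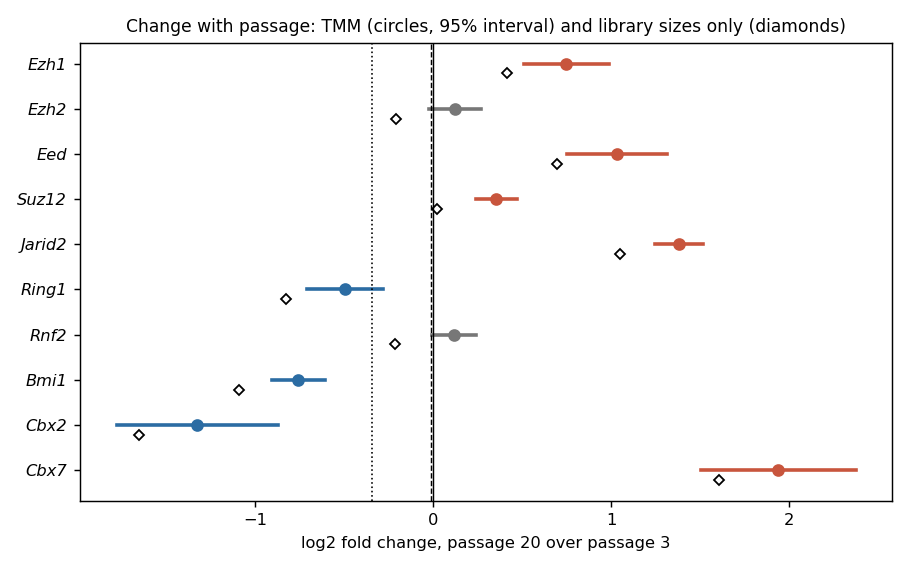
log2 fold change of each Polycomb gene, passage 20 over passage 3, with TMM scaling (circles with 95% intervals; red higher, blue lower, grey not passed) and with library sizes only (open diamonds). The dashed and dotted lines mark the medians of all genes under the same scalings, -0.01 and -0.34, and the diamonds of Ezh2 and Rnf2 lie on the other side of 0.

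Per kilobase of merged exons, Rnf2 had the highest level at both passages, 23.5 ± 0.738 CPM per kb at passage 3 and 25.5 ± 1.03 at passage 20. At passage 3 it was followed by Suz12 (16.6), Bmi1 (14.6), Ezh2 (12.8), Cbx2 (12.3), Eed (9.47), Jarid2 (9.40), Ring1 (7.998), Ezh1 (3.07) and Cbx7 (0.307). In that order the libraries of Ezh2 and Cbx2, and of Eed and Jarid2, overlapped. At passage 20 the order was Rnf2, Jarid2 (24.5), Suz12 (21.3), Eed (19.4), Ezh2 (13.9), Bmi1 (8.63), Ring1 (5.71), Ezh1 (5.18), Cbx2 (4.87) and Cbx7 (1.18). There Rnf2 and Jarid2, Suz12 and Eed, Ring1 and Ezh1, and Ezh1 and Cbx2 overlapped. Jarid2 had moved up the order and Bmi1 and Cbx2 down it.

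Ratios between related subunits depend on the scaling between libraries only through the prior count of 2 added before the log2. That addition weighs most for Cbx7, which had few counts. Ezh2 exceeded Ezh1 4.14-fold per length at passage 3 and 2.69-fold at passage 20, and the log2 ratio fell by 0.62, from 1.89 ± 0.129 to 1.27 ± 0.124. Rnf2 exceeded Ring1 2.92-fold and then 4.46-fold, a log2 rise of 0.61 from 1.89 ± 0.0275 to 2.50 ± 0.136. Cbx2 exceeded Cbx7 37.8-fold and then 3.99-fold, and the log2 ratio fell by 3.25, from 4.63 ± 0.226 to 1.39 ± 0.704. In each pair the groups did not overlap. The exact two-sided permutation test gave p = 0.1 for each, the smallest value that 3 against 3 libraries allow.

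Shares of whole subunit families, a description added after the data had been seen, came from raw counts and do not depend on that scaling. Among the 6 PCGF genes, counted per length, Bmi1 made up 27.5%, 25.2% and 25.5% at passage 3 and 13.2%, 13.4% and 12.9% at passage 20. Pcgf5, a subunit of variant PRC1 without CBX proteins, went from 3.32%, 4.04% and 3.40% to 19.5%, 17.4% and 18.1%. Bmi1 thus had the larger share of the pair in each early library and the smaller in each late one. Pcgf3 had the largest or second largest share at both passages, 29.8 ± 0.646% and 26.2 ± 2.52%, and Pcgf2, the paralog of Bmi1, held 27.4 ± 0.841% and 29.8 ± 2.02%. The groups overlapped for both (exact two-sided permutation p = 0.2 each). Among the 5 CBX genes Cbx2 fell from 33.8 ± 0.316% to 14.5%, 14.2% and 20.6%, and Cbx7 went from 0.842 ± 0.131% to 4.11 ± 1.09%. Cbx6, a CBX gene outside the list of 10, held the largest share at both passages, 47.5 ± 0.603% and 56.5 ± 4.81%. The exact two-sided permutation p was 0.1 for the shares of Bmi1, Pcgf5, Cbx2, Cbx6 and Cbx7, again the smallest possible.

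**Figure D3:**
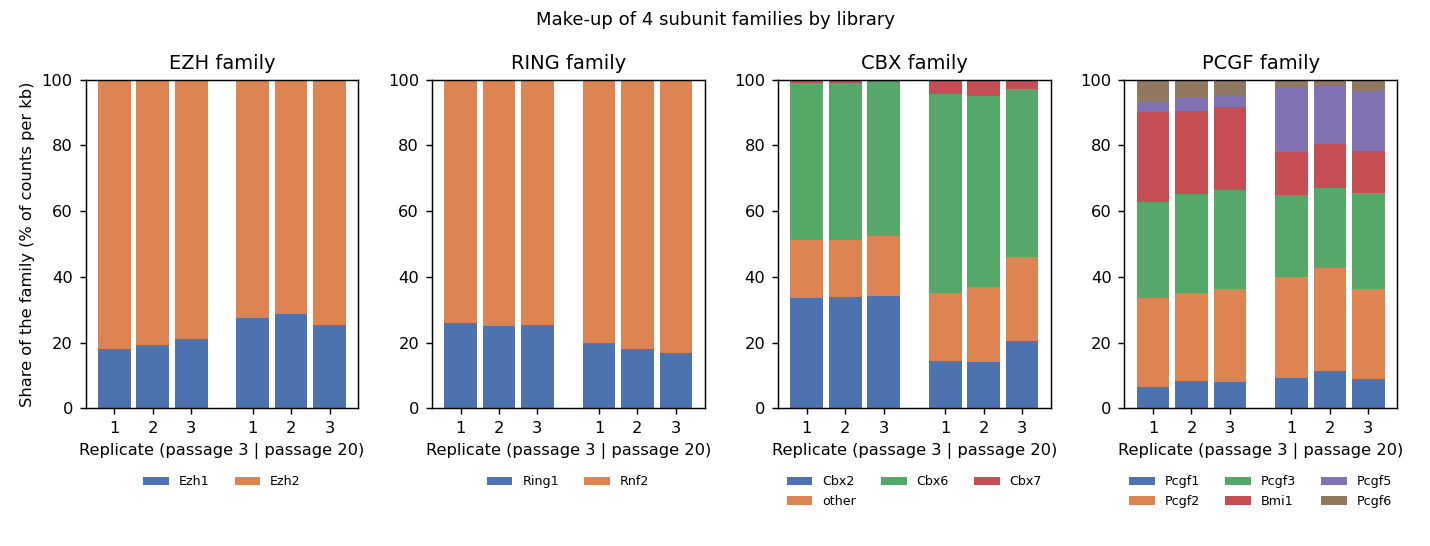
Share of each gene in its subunit family, in % of counts per kb of merged exons, for each library, with the remaining CBX genes summed as other (bars 1 to 3 at the left are passage 3, at the right passage 20). The Pcgf5 segment grows from 3.59% to 18.4% on average while Bmi1 shrinks from 26.1% to 13.2%, and Cbx2 shrinks least in the third late library (20.6%).

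The other genes of both complexes, taken from lists, also moved both ways. Of 22 other PRC1 genes tested, 9 rose, 6 fell and 7 did not pass, 68.2% called beside 74.3% of all genes, with a median log2 of 0.23 (edgeR quasi-likelihood, BH-adjusted). Pcgf5 had the largest change, 5.99-fold, from 23.3, 28.7 and 24.0 CPM to 159, 147 and 148 CPM (log2 2.58, SE 0.08, adjusted p = 8.48e-10, edgeR quasi-likelihood, BH-adjusted). Pcgf1 rose by 0.58 on the log2 scale to 10.5 ± 1.66 CPM and Pcgf2 1.27-fold to 68.8 ± 5.56 CPM. Pcgf6, a subunit of a variant complex with L3mbtl2 and Mga, fell 1.75-fold to 8.76 ± 2.44 CPM, and L3mbtl2 fell 1.45-fold, whereas Mga rose 1.78-fold to 321 ± 39.5 CPM. Pcgf3 was at 159 and 163 CPM, Cbx6 at 184 and 174, and Cbx8 at 11.7 and 11.3, none of which passed (smallest adjusted p = 0.157, edgeR quasi-likelihood, BH-adjusted). Without passage 20 replicate 3 Cbx6 passed as lower, at -0.12 on the log2 scale (adjusted p = 0.0120, edgeR quasi-likelihood, BH-adjusted). Bcor, a corepressor of the variant complex with Pcgf1, rose 1.87-fold to 220 ± 13.6 CPM. Of the 3 polyhomeotic genes, Phc1 rose 1.67-fold to 98.9 ± 7.13 CPM, Phc3 rose 1.63-fold to 176 ± 15.5 CPM and Phc2 fell 1.26-fold to 108 ± 5.84 CPM. Mga and Phc3 were added after their values were seen. Auts2, which joins complexes with Pcgf3 or Pcgf5, fell 1.37-fold to 69.8 ± 6.15 CPM. With library sizes only 6 of the other PRC1 genes were higher and 10 lower. Pcgf1 and Pcgf2 then no longer passed, and Pcgf3, Cbx6 and Cbx8 passed as lower. L3mbtl2 overlaps Chadl on the opposite strand, which had 12.6% of its counts.

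Of 9 other PRC2 genes 8 could be tested, and 3 rose, 1 fell and 4 did not pass, 50% called beside 74.3% of all genes, with a median log2 of 0.09. Ezhip had 1 count in 6 libraries. Among the accessory subunits Aebp2 rose 1.70-fold, from 65.3 ± 1.79 to 111 ± 5.197 CPM, and Mtf2 1.32-fold to 84.2 ± 6.55 CPM, while Lcor, the gene of a further accessory subunit, fell 1.37-fold to 19.2 ± 1.35 CPM. The histone chaperone genes Rbbp7 and Rbbp4 differed: Rbbp7 rose 1.55-fold to 621 ± 54.4 CPM, and Rbbp4 was at 243 ± 3.99 and 230 ± 0.853 CPM and did not pass (adjusted p = 0.118, edgeR quasi-likelihood, BH-adjusted). Without passage 20 replicate 3 Rbbp4 passed as lower, at -0.099 on the log2 scale (adjusted p = 0.0304, edgeR quasi-likelihood, BH-adjusted). With library sizes only 2 were higher and 4 lower, with Mtf2 no longer passing and Rbbp4 passing as lower. Mtf2 overlaps Tmed5 on the opposite strand, which had 35.2% of its counts.

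Genes that undo or oppose the Polycomb marks were read from lists as well. In the list of demethylases, deubiquitinases and Asxl genes, 2 of 8 rose, 2 fell and 4 did not pass. That was 50% called beside 74.3% of all genes, with a median of -0.03. Of the enzymes only Kdm6b rose and only Usp16 fell. Kdm6b, a demethylase of the PRC2 mark, rose 1.35-fold to 249.9 ± 13.2 CPM, and its paralog Kdm6a was at 56.5 ± 0.513 and 56.0 ± 4.81 CPM and did not pass (adjusted p = 0.873, edgeR quasi-likelihood, BH-adjusted). Asxl3, a partner of the deubiquitinase Bap1, fell from 42.4, 42.2 and 43.0 CPM to 6.83, 7.76 and 11.6 CPM, 4.81-fold lower, while Asxl2 rose 1.25-fold with TMM and was at -0.0085 on the log2 scale with library sizes only, where 0 genes of this list were higher and 6 lower, Kdm6b did not pass and Kdm6a passed as lower. Usp16, another H2A deubiquitinase, fell 1.57-fold, and overlaps Cct8, which had 24270 counts on the opposite strand beside 3502 for Usp16. In the Trithorax list, whose proteins keep genes active, 2 of 11 rose, 5 fell and 4 did not pass, 63.6% called beside 74.3% of all genes, with a median of -0.07. With library sizes only 2 were higher and 9 lower, beside 3528 higher and 8273 lower among all genes. Nsd1 fell 1.74-fold, Kmt2c 1.58-fold and Kmt2d 1.38-fold, and Rbbp5 and Men1 rose 1.96-fold and 1.38-fold (largest adjusted p of the Trithorax genes named = 8.29e-06, edgeR quasi-likelihood, BH-adjusted).

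Known targets of Polycomb repression were read beside the complexes. Cdkn2a rose 1.32-fold, from 15.7, 17.6 and 18.2 CPM to 24.0, 23.7 and 20.7 CPM (log2 0.40, SE 0.10, adjusted p = 0.00302, edgeR quasi-likelihood, BH-adjusted), and its change was 0.07 and did not pass with library sizes only. Its neighbour Cdkn2b was at 38.0 ± 0.709 and 41.5 ± 9.33 CPM and did not pass (adjusted p = 0.386, edgeR quasi-likelihood, BH-adjusted). Of 18 listed targets outside the Hox clusters 10 could be tested, and 5 rose, 3 fell and 2 did not pass, 80.0% called beside 74.3% of all genes, with a median of 0.27, and with library sizes only 2 were higher and 4 lower. Lhx2 rose 3.91-fold to 5.15 ± 0.772 CPM and Gata6 1.504-fold to 148 ± 12.0 CPM, whereas Dlx5 fell 5.14-fold to 1.01 ± 0.366 CPM. Among the targets that fell, Dlx5 (274 counts at passage 3 and 33 at passage 20) and Pax6 (74 and 18) passed the low-count filter only through passage 3. The filter had thus fixed the direction of both. Hox genes were mostly lower: of 39 listed 32 could be tested, and 2 rose, 27 fell and 3 did not pass. That was 90.6% called beside 74.3% of all genes, with a median log2 of -2.48. Most of the 27 that fell passed the low-count filter only through passage 3. Hoxc12 (820 counts there and 2 at passage 20), Hoxd12 (1434 and 7) and Hoxa13 (2024 and 24) were among these. For such genes the filter had fixed the direction. The share called and the median therefore rest largely on genes that could only be called lower. Hoxd12 and Hoxa13 were at 27.7 and 39.2 CPM at passage 3 and at 0.215 and 0.748 CPM at passage 20. Hoxa10 had enough counts at both passages to pass. It fell from 40.4 to 2.60 CPM (adjusted p = 9.01e-10, edgeR quasi-likelihood, BH-adjusted). At passage 20 Hoxa10 held 85 counts in all, so its 15.3-fold fall is uncertain in size. Hoxb9 rose 1.36-fold to 6.59 ± 0.907 CPM (adjusted p = 0.0232, edgeR quasi-likelihood, BH-adjusted, and adjusted p = 0.0691 by DESeq2).

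Since Ezh2 and its partners are known to be more abundant in dividing cells, a proliferation list was read as well. Of 21 genes 9 rose, 8 fell and 4 did not pass, 81.0% called beside 74.3% of all genes, with a median of 0.09 (edgeR quasi-likelihood, BH-adjusted), and with library sizes only 4 were higher and 13 lower. Mki67 was at 400 ± 23.4 and 429.6 ± 55.2 CPM and did not pass (adjusted p = 0.31, edgeR quasi-likelihood, BH-adjusted). Its log2 change was 0.17 and passed without passage 20 replicate 3 (adjusted p = 0.0121), and it was -0.23 and passed with library sizes only (adjusted p = 0.0237), so no direction is given for Mki67. E2f1 rose 1.59-fold, Aurkb 1.68-fold and Top2a 1.55-fold, while Ccne1 fell 2.20-fold, Tyms 1.70-fold and Rrm2 1.44-fold. The part of these genes in the Polycomb values was not tested.

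**Figure D4:**
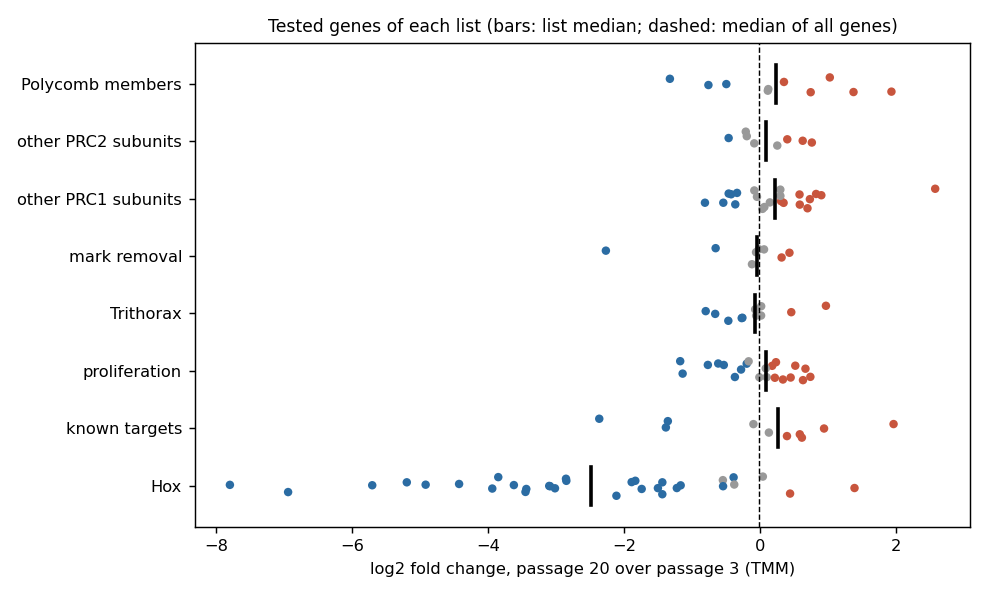
log2 fold change (horizontal axis, passage 20 over passage 3, TMM) of every tested gene in 8 lists, coloured red where higher, blue where lower and grey where not passed, with list medians as bars and the median of all genes dashed. The Hox list has its median at -2.48, the other lists between -0.07 and 0.27, and Pcgf5 is the point farthest to the right at 2.58. Most Hox genes called lower passed the low-count filter only through passage 3, which fixed their direction.

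For the Polycomb genes with the largest rise and fall, the genes most like them in pattern were found among 11385 genes whose mean reached 5 CPM. Likeness was the root mean square difference of centred log2 CPM over the 6 libraries. Closest to Cbx7 were Hectd2 (0.0926), Col6a5 (0.136) and Gm26724 (0.138). Closest to Cbx2 were D3Ertd254e (0.0400), Slc35f6 (0.0479) and Tlnrd1 (0.0554).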

How the data were processed

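The authors deposited whole-number counts per Ensembl gene for each of 6 libraries, and deposited values on a log2 scale whose transformation is not stated. HISAT2 2.0.5, SAMtools, HTSeq, DESeq2 and GRCm38 are named in the submitters' processing notes, without roles. Neither strand use nor the annotation release is stated in the sources used here. Gene names, positions and merged exon lengths came from GENCODE M21 (GRCm38), which matched 53706 of 53801 identifiers. The 95 others took 0.00623% of counts and stayed in the fit. Ezhip was matched through an older symbol in RefSeq.

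Counts were filtered with filterByExpr, scaled with TMM (factors 0.873 to 1.13) and tested in edgeR 4.0.16 by its robust quasi-likelihood test in R 4.3.3, passage 20 against passage 3. Benjamini-Hochberg adjustment ran over all 15143 genes, and calls were made below 0.05. The common biological variation (BCV) came to 7.05%. SE is the log2 fold change over the square root of F. Ratios used log2 CPM with a prior count of 2. Promoter sequences are RefSeq's (GRCm38.p6). The test was checked on simulated counts with 200 changed genes, of which 14817 genes in all were tested. It recovered 75.8%, 80.3% and 100% of the 1.5-fold, 2-fold and 4-fold changes, with 12 false calls. With so few changed genes that check cannot speak to the choice of scaling.

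Alternatives were RLE factors, upper-quartile factors, unscaled library sizes, limma-voom, DESeq2 1.42.0, limma 3.58.1 on the deposited log2 values, no filter, at least 1 CPM in 3 libraries, a threshold of 0.01, a replicate block and each library left out. Members and lists were chosen with earlier results of these data known. Besides the 10 members and 16 genes fixed by name, each list contributed up to 3 called genes per direction with the smallest adjusted p and at least 5 CPM in the higher group. Values for 2 genes within that rule were left out.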

Additional observations from a re-analysis of the deposited data

How the results depend on the processing

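Library sizes only had the widest effect. The number of all genes higher was then 3528, the Polycomb genes numbered 5 lower, and the log2 changes of Ezh2, Rnf2 and Suz12 were -0.21, -0.21 and 0.025. Genes lower numbered 4 in the other PRC2 list and 10 in the other PRC1 list. They numbered 6 in the list of demethylases, deubiquitinases and Asxl genes (with 0 higher), 9 in the Trithorax list and 13 in the proliferation list (with 4 higher). Genes higher numbered 2 among known targets and 1 among Hox genes. There the log2 changes of Asxl2, Cdkn2b, Mki67 and Pcgf3 turned to -0.0085, -0.19, -0.23 and -0.29. With upper-quartile factors 3 other PRC2 genes were lower, 1 Hox gene was higher and Pcgf3 was at -0.037. With a threshold of 0.01, 3 known targets and 1 Hox gene were higher, and with DESeq2 1 Hox gene was higher. Under settings other than leaving out a library, 87 log2 values of the Polycomb genes kept direction and side of the threshold, and the exceptions were Ezh2, Rnf2 and Suz12 as given. The paralog ratios and the family shares kept their direction in each setting run for them.

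Leaving out 1 library in turn gave 0.075 to 0.17 for Ezh2 and 0.083 to 0.14 for Rnf2 on the log2 scale, 1 to 2 other PRC2 genes lower, 3 to 5 known targets higher and 1 to 2 Hox genes higher. The other PRC2 genes lower were 2 without passage 3 replicate 2 or passage 20 replicate 3, and the known targets higher were 3 without passage 3 replicate 3 or passage 20 replicate 1. Hoxb9 did not pass without passage 3 replicate 1, passage 3 replicate 3 or passage 20 replicate 3. The log2 ranges were -0.081 to 0.26 for Cdkn2b, -0.060 to 0.042 for Kdm6a, -0.051 to 0.081 for Pcgf3 and -0.12 to 0.038 for Cbx8. The sign turned without passage 20 replicate 3, and for Cbx8 without passage 20 replicate 1. None of these genes passed with all libraries under TMM scaling. With library sizes only Kdm6a, Pcgf3 and Cbx8 passed as lower. The cause of these moves was not tested.

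The replicate numbers gave no sign of pairing: deviations of same-numbered libraries had correlations of 0.01, -0.03 and 0.05 on log2 CPM. Those of other-numbered libraries lay between -0.044 and 0.038. With 3 libraries per group these values cannot exclude a shared origin. With the replicate block 5521 genes were higher and 5582 lower, the Polycomb genes were again 5 higher and 3 lower, and Ezh2 and Rnf2 were at 0.12 and 0.12 on the log2 scale. For the paralog ratios the exact sign-flip test over same-numbered libraries gave p = 0.25, the smallest it allows. Depth limits Cbx7 most, with 102 counts in all at passage 3.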
